A study of Homo sapiens with 9 samples.

Results

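The genes described here are 40 protein-coding genes of the G2 phase and of mitosis, chosen by symbol: the cyclins, CDK1 and CDC25 phosphatases of mitotic entry, the mitotic kinases, the chromosomal passenger complex, the spindle assembly checkpoint, centromere proteins, mitotic kinesins, spindle proteins, the activator, enzyme and substrates of the anaphase-promoting complex (APC/C), 2 chromosome proteins and the transcription factor FOXM1. All 40 were among the 36785 genes of the deposited table, and all 40 passed the filter on low counts that left 21296 genes to test. Messenger RNA of SKOV3, a long-established line of human ovarian carcinoma cells with amplified ERBB2, was selected by its poly(A) tail and sequenced. All cells had been transduced with lentivirus. The groups were sh1, with the genotype label STXBP6 knockdown_1, sh3, labelled STXBP6 knockdown_3, and the control shNC, labelled NC, with 3 libraries each. STXBP6 encodes amisyn, a syntaxin-binding protein of regulated exocytosis. No label says that replicate libraries were grown separately, so p-values measure only the spread between these libraries, which may be technical. Hairpin sequences are not given in the labels.

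A cell enters mitosis when CDK1, bound to cyclin B, is freed of inhibitory phosphates by CDC25 phosphatases, and Polo-like and Aurora kinases then drive centrosome separation and spindle assembly. The spindle assembly checkpoint holds CDC20, and with it the APC/C ubiquitin ligase, until every chromosome is attached. The APC/C then marks securin and cyclin B for destruction, and the chromosomes separate. Transcripts of these genes are low in G1 and peak in G2 and mitosis, under a program that is high in many proliferating tumours. In human cells it uses the MuvB complex with MYBL2 and FOXM1 at so-called CHR elements and NF-Y at CCAAT boxes. Of the forms of the CHR, only TTTGAA and TTCGAA were searched here.

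Promoter sequences are shown for 5 genes because 4 of them, CDC20, PLK1, CCNB1 and CCNB2, rose with both hairpins, while CDC25B was not called with sh1. They are the 150 bases before a start annotated by RefSeq on GRCh38.p14, 5′ to 3′, all on the plus strand, and capitals mark the CCAAT box, or on the opposite strand its complement, and the CHR elements named above. The regions are chr1:43358831-43358980 for CDC20, chr16:23678739-23678888 for PLK1, chr5:69167000-69167149 for CCNB1, chr15:59104996-59105145 for CCNB2 and chr20:3796160-3796309 for the third of the 4 starts listed for CDC25B, shown because TTCGAA stood before no other start of that gene. RefSeq starts need not be the starts used in SKOV3 cells.
CDC20: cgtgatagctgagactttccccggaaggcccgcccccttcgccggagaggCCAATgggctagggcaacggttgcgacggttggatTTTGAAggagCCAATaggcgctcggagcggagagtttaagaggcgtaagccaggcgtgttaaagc
PLK1: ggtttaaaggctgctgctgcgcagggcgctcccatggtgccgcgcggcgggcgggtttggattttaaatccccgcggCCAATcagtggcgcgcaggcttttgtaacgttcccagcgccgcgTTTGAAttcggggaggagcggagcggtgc
CCNB1: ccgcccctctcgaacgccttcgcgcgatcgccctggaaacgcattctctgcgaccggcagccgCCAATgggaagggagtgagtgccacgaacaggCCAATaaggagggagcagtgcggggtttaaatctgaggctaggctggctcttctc
CCNB2: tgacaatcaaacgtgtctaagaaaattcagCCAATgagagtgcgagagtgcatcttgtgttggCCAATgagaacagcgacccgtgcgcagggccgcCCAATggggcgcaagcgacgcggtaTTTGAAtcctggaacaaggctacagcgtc
CDC25B: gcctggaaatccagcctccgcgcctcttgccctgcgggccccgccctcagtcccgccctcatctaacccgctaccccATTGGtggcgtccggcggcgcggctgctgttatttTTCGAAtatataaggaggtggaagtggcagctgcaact

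The CCNB2 stretch holds 3 CCAAT boxes that begin 120, 87 and 54 bases before the start, each 33 bases from the next, and TTTGAA 29 bases before it. In CCNB1 a pair of CCAAT boxes begins 87 and 55 bases before the start, with neither TTTGAA nor TTCGAA in the window searched. Other forms of the CHR were not searched, so a lack of the element in CCNB1 is not shown. In CDC20 the boxes begin 100 and 55 bases before the start, with TTTGAA at 65. PLK1 has CCAAT at 73 and TTTGAA at 29, and the CDC25B stretch has CCAAT on the opposite strand at 73 and TTCGAA at 38. Before the second CDC25B start only CCAAT was found, at 169. Before the first and the fourth, none of the motifs searched was found. Of the 40 genes, 33 had an entry in the promoter table, with 42 starts between them. In the 250 bases before any listed start, searched on both strands, CCAAT was found for 30 of the 33 (90.9%), against 40.5% of 13042 tested genes with an entry. Of the others, KIF2C, CENPE and BUB1B had none. TTTGAA was found for 17 (51.5%), against 12.3% of tested genes, and TTCGAA for 1 (3.03%, CDC25B), against 1.82%. CCAAT together with TTTGAA or TTCGAA was found for 17 (51.5%), against 5.44%. Over the 27305 genes of the whole promoter table the shares were 37.0% for CCAAT, 16.1% for TTTGAA, 1.5% for TTCGAA and 6.24% for the combination. None of these matches is evidence of binding, and genes with more listed starts have more chances of a match.

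The libraries held 57654447 to 69264400 counts, and a member had 921 to 68969 counts in a library. The STXBP6 transcript was close to undetected in every library, with 7, 4 and 26 counts in sh1, 20, 31 and 18 in sh3 and 4, 0 and 15 in shNC, and it was not called lower in the libraries labelled knockdown. Its log2 fold changes were 0.87 ± 1.02 with sh1 and 1.81 ± 1.01 with sh3 (SE, adjusted p = 0.56 and 0.23, edgeR), and without shNC replicate 3 the sh3 change was called higher, at 3.54 ± 1.18 (adjusted p = 0.046, edgeR). With so few counts in shNC, a fall could hardly have been seen. The call higher rests on shNC libraries with 4 and 0 counts. The counts of STXBP6 therefore do not bear out the labels and cannot test them. Every direction below compares libraries labelled sh1, sh3 and shNC. All 8 epithelial markers were at a mean of at least 1 FPKM in each group, with summed levels of 781 to 815 FPKM in sh1, 1215 to 1255 in sh3 and 1212 to 1315 in shNC. Most of each sum was ERBB2, at 485 to 520 FPKM in sh1, 831 to 877 in sh3 and 836 to 953 in shNC. KRT7 was highest in sh1, at 42.1 to 43.8 FPKM, against 24.1 to 26.1 in sh3 and 22.6 to 24.1 in shNC. KRT8 was highest in sh3, at 149 to 154 FPKM, against 94.8 to 99.3 in sh1 and 94.6 to 99.9 in shNC. KRT19 was at 13.8 to 14.1 in sh1, 29.7 to 31.6 in sh3 and 31.4 to 32.4 in shNC. KRT18, in the same order, was at 42.6 to 44.4, 62.2 to 64.4 and 56.3 to 58.3. CD24 was at 89.1 to 94.4, 103 to 108 and 134 to 151. MUC1 was at 3.78 to 4.27, 4.18 to 4.86 and 10.7 to 11.4. EPCAM was at 1.39 to 1.79, 1.52 to 2.04 and 2.19 to 2.56. None of the 4 leukocyte markers in the table (of 6 listed) reached a mean of 1 FPKM, and the leukocyte marker PTPRC had no count outside 1 shNC library. The 5 endothelial markers summed to 0.978 to 1.15 FPKM in sh1, 2.72 to 2.90 in sh3 and 1.89 to 2.12 in shNC. Only KDR reached a mean of 1 FPKM, at 0.913 to 1.09 in sh1, 2.60 to 2.80 in sh3 and 1.66 to 1.84 in shNC. PECAM1 was highest in shNC, at 0.171 to 0.176 FPKM, against 0.0130 to 0.0323 in sh1 and 0.0391 to 0.0633 in sh3. VWF, CDH5 and CLDN5 stayed at or under 0.0699 FPKM. Of 7 fibroblast markers 3, 3 and 4 reached 1 FPKM, with sums of 18.3 to 19.1 in sh1, 13.2 to 14.4 in sh3 and 16.6 to 19.9 in shNC. COL1A1 was lowest in shNC, at 4.51 to 5.67 FPKM, against 8.58 to 8.93 in sh1 and 6.99 to 7.03 in sh3. LUM was highest in shNC, at 8.00 to 10.6 FPKM, against 6.49 to 7.25 in sh1 and 3.17 to 3.77 in sh3. DCN stayed at or under 0.423 FPKM. Of 3 Mullerian markers 2 reached 1 FPKM in each group, with sums of 51.0 to 53.1 in sh1, 62.5 to 66.1 in sh3 and 82.6 to 92.8 in shNC. PAX8 was at 26.5 to 28.0 FPKM in sh1, 34.9 to 37.8 in sh3 and 52.9 to 61.1 in shNC. SOX17 was at 23.0 to 25.5, 26.3 to 29.2 and 29.6 to 31.7. The part of all these markers in the results was not tested.

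The 3 shNC libraries were not alike for the G2/M and mitosis genes. Replicate 3 was the highest shNC library for 39 of the 40, against 38.4% of genes with a mean of at least 1 FPKM in shNC. Its FPKM was 1.16 times the mean of replicates 1 and 2 at the median, with a range over members of 0.964 for CDC25B to 1.32. The coefficient of variation over 3 libraries had a median of 2.54% in sh1, 2.1% in sh3 and 9.37% in shNC, and it was 2.68% between shNC replicates 1 and 2. The members' median fold changes against shNC and the numbers called are therefore given also without that library. Fold changes of single members come from all 9 libraries.

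Nearly the whole set was higher with both hairpins. The 40 genes took 0.842%, 0.829% and 0.838% of all counts in the sh1 libraries, 0.789%, 0.798% and 0.793% in sh3, and 0.456%, 0.461% and 0.525% in shNC. Every sh1 and sh3 library lay above every shNC library, and the sh1 and sh3 shares did not overlap either. Against shNC, 39 of the 40 rose with sh1, 0 fell and 1, CDC25B, was not called (edgeR's quasi-likelihood test, Benjamini-Hochberg adjusted p under 0.05 over all genes tested), where 38.7% of tested genes were called and 19.9% were called higher. With sh3 all 40 rose, where 26.9% of tested genes were called and 14.4% were called higher. In all, 39 were higher in both, against 10.6% of tested genes. These contrasts share the shNC libraries. The median log2 fold change of the members was 0.96 with sh1 and 0.84 with sh3, against -0.02 and -0.01 over all tested genes. Without shNC replicate 3 the members' medians were 1.04 and 0.90, with the same 39 and 40 called. In bulk RNA, more cells in G2 and mitosis and more of these transcripts per cell cannot be told apart.

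**Figure D1:**
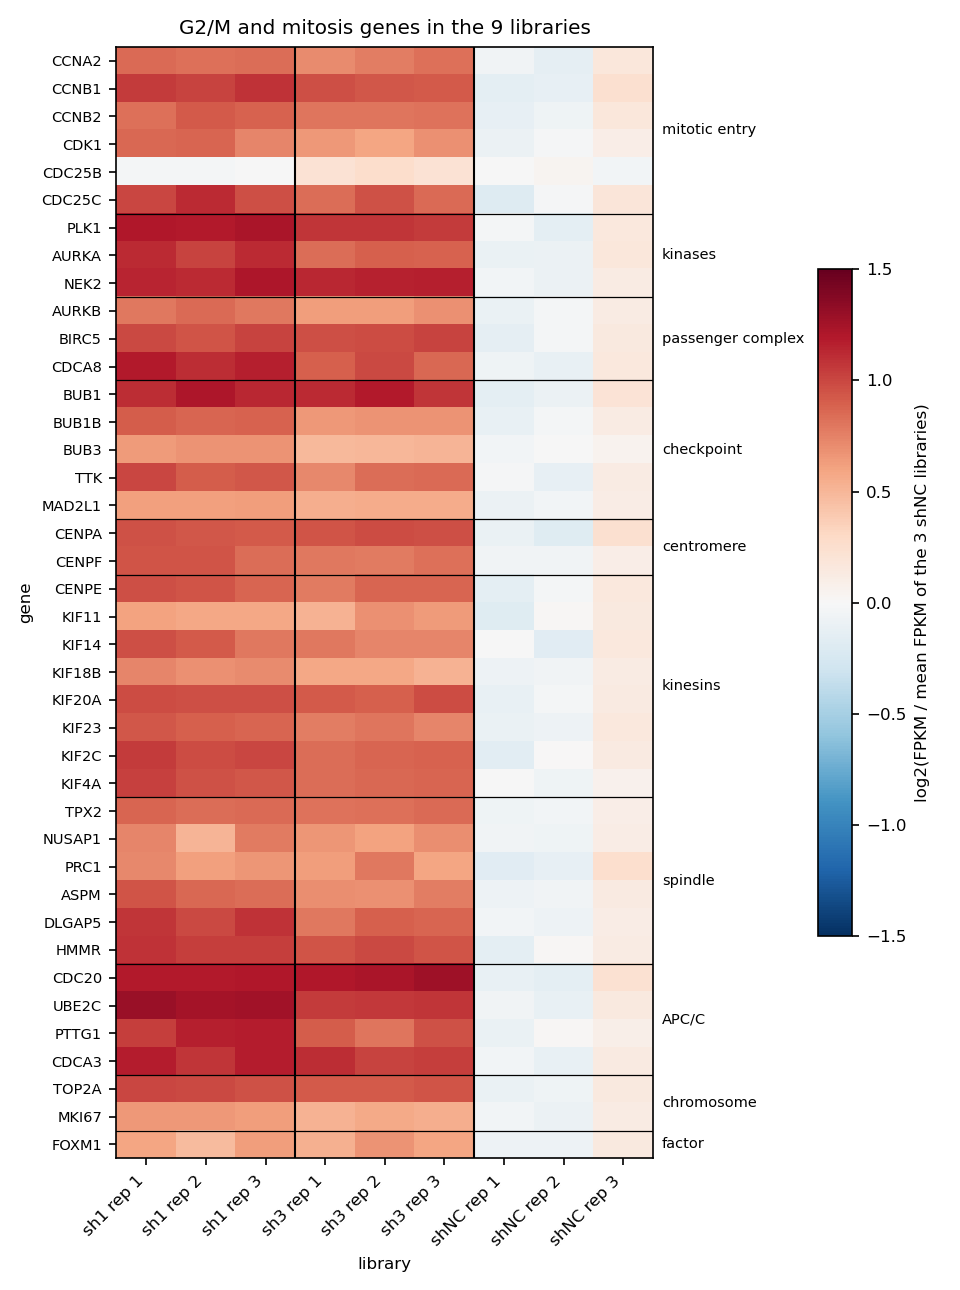
Level of each of the 40 genes in the 9 libraries, as log2 of its FPKM over its mean FPKM in shNC (colour scale), with genes grouped by role (rows) and libraries by group (columns). The sh1 and sh3 columns are red for all genes but CDC25B, which is near 0 in sh1, and shNC replicate 3 is the reddest of the shNC columns for 39 genes.

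In FPKM, all 6 sh1 and sh3 libraries lay above all 3 shNC libraries for 39 genes, and CDC25B was the exception. No overlap between the 3 and 3 libraries, upward, was found for 39 members with sh1 and 40 with sh3 on the normalised count scale, against 24.6% and 20.8% of tested genes. The lowest sh1 or sh3 library over the highest shNC library gave a ratio of 1.25 for FOXM1, the smallest among the 39, and of 1.99 for NEK2, with a median of 1.59. A log2 fold change of at least 1 was reached by 18 genes with sh1 and by 6 with sh3, against 1.8% and 1.13% of tested genes that were called and rose so far. The 6 reached it with both hairpins: CDC20, UBE2C, PLK1, NEK2, BUB1 and CDCA3.

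Of the 6 genes of mitotic entry, 5 rose with sh1 and 6 with sh3, with medians of 0.89 and 0.79. CCNB1, cyclin B1 (ENSG00000134057, GRCh38 chromosome 5, 69167135 to 69178245), was at 116, 114 and 119 FPKM in sh1, 110.1, 108 and 107 in sh3 and 51.2, 51.8 and 66.5 in shNC. Every sh1 and sh3 library was well above the highest shNC library, and shNC replicate 3 stood above the other shNC libraries. Its log2 fold changes were 1.08 ± 0.08 with sh1 and 0.94 ± 0.08 with sh3 (SE, adjusted p = 8.7e-07 and 6.6e-06, edgeR). CDK1, the kinase that cyclins A and B activate, was at 38.1, 38.4 and 34.9 FPKM in sh1, 32.9, 31.7 and 33.8 in sh3 and 19.8, 20.7 and 22.4 in shNC, so the 3 groups did not overlap, with fold changes of 0.86 ± 0.05 and 0.65 ± 0.05. CCNA2, the cyclin of S phase and G2, rose by 0.87 and 0.77, and CCNB2, cyclin B2, by 0.91 and 0.81. CCNB1 was 3.17 ± 0.15 times the FPKM of CCNB2 in sh1, 3.09 ± 0.05 times in sh3 and 2.81 ± 0.13 times in shNC (SD, n = 3 each).

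The CDC25 phosphatases, which remove the inhibitory phosphates of CDK1, did not move alike. CDC25C, which acts at the start of mitosis, was at 8.69, 9.39 and 8.50 FPKM in sh1, 7.78, 8.39 and 7.82 in sh3 and 3.81, 4.29 and 4.91 in shNC, and rose by 1.06 ± 0.09 and 0.88 ± 0.09. CDC25B, which acts earlier, at the centrosome (ENSG00000101224, chromosome 20, 3786772 to 3806121), was at 149, 149.7 and 152 FPKM in sh1, 177, 183 and 177 in sh3 and 151, 157 and 149 in shNC. The sh1 values fell within the range of the shNC values, and the sh3 values lay above both. CDC25B was the member with the highest FPKM in shNC. Its log2 fold change was 0.01 ± 0.03 with sh1 (SE, adjusted p = 0.78, edgeR) and 0.23 ± 0.03 with sh3 (adjusted p = 8.2e-05). The FPKM ratio of CDC25B to CDC25C was 17.0 ± 0.96 in sh1, 22.4 ± 0.52 in sh3 and 35.5 ± 4.85 in shNC (SD, n = 3 each). The CDC25B ratio over CDC25C was therefore lower in every sh1 and sh3 library than in the lowest shNC library, at 30.2.

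The mitotic kinases outside the checkpoint all rose with both hairpins, with medians of 1.19 with sh1 and 1.07 with sh3. PLK1, the Polo-like kinase of centrosome maturation and mitotic entry (chromosome 16, 23677656 to 23690366), was at 54.5, 53.7 and 55.4 FPKM in sh1, 49.7, 49.7 and 48.9 in sh3 and 23.1, 21.4 and 26.4 in shNC. The groups did not overlap, and the fold changes were 1.24 ± 0.06 and 1.07 ± 0.06 (SE, adjusted p = 2.7e-08 and 2.7e-07, edgeR). NEK2, which splits the link between centrosomes, was at 13.1, 12.9 and 13.8 FPKM in sh1, 13.0, 13.2 and 13.3 in sh3 and 5.75, 5.57 and 6.46 in shNC. Its sh1 and sh3 values overlapped, both well above shNC, with log2 fold changes of 1.19 ± 0.06 and 1.15 ± 0.06. AURKA, the Aurora kinase of the spindle poles, was at 44.7, 41.6 and 44.6 FPKM in sh1, 36.8, 38.3 and 37.9 in sh3 and 19.2, 19.4 and 23.2 in shNC, with changes of 1.11 ± 0.06 and 0.87 ± 0.06.

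The chromosomal passenger complex corrects wrong attachments at the centromere and acts again in cytokinesis. AURKB, its kinase, rose by 0.84 ± 0.06 with sh1 and 0.65 ± 0.05 with sh3. BIRC5, survivin, which brings the complex to the centromere, was at 47.1, 45.7 and 47.9 FPKM in sh1, 46.4, 46.5 and 47.7 in sh3 and 21.7, 23.2 and 26.3 in shNC, so that both hairpins reached the same range, with changes of 1.02 ± 0.06 and 0.99 ± 0.06. CDCA8, borealin, was at 48.8, 46.1 and 48.1 FPKM in sh1, 39.9, 42.5 and 38.8 in sh3 and 20.5, 19.8 and 23.9 in shNC, and its sh3 values lay below all sh1 values. The FPKM ratio of AURKA to AURKB was 1.73 ± 0.10 in sh1, 1.67 ± 0.04 in sh3 and 1.43 ± 0.05 in shNC (SD, n = 3 each).

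All 5 checkpoint genes rose with both hairpins, with medians of 0.92 with sh1 and 0.67 with sh3, but by unequal amounts. BUB1, the kinase that gathers checkpoint proteins at the kinetochore, was at 13.2, 14.2 and 13.4 FPKM in sh1, 13.3, 14.0 and 12.9 in sh3 and 5.53, 5.77 and 7.10 in shNC, with changes of 1.18 ± 0.08 and 1.13 ± 0.08 (SE). BUB3, the WD-repeat partner of BUB1 and BUB1B, was at 26.6, 27.2 and 27.2 FPKM in sh1, 24.0, 24.1 and 24.3 in sh3 and 16.6, 17.0 and 17.7 in shNC. The BUB3 groups did not overlap, and its changes of 0.69 ± 0.03 and 0.50 ± 0.03 were smaller. The FPKM ratio of BUB1 to BUB3 was 0.504 ± 0.015 in sh1, 0.555 ± 0.026 in sh3 and 0.358 ± 0.038 in shNC (SD, n = 3 each). MAD2L1, which binds and holds CDC20, rose by 0.65 ± 0.05 and 0.56 ± 0.05. TTK, the kinase MPS1 that starts checkpoint signalling, rose by 0.98 ± 0.06 and 0.80 ± 0.06. BUB1B, BubR1 of the mitotic checkpoint complex, rose by 0.92 ± 0.05 and 0.67 ± 0.05.

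**Figure D2:**
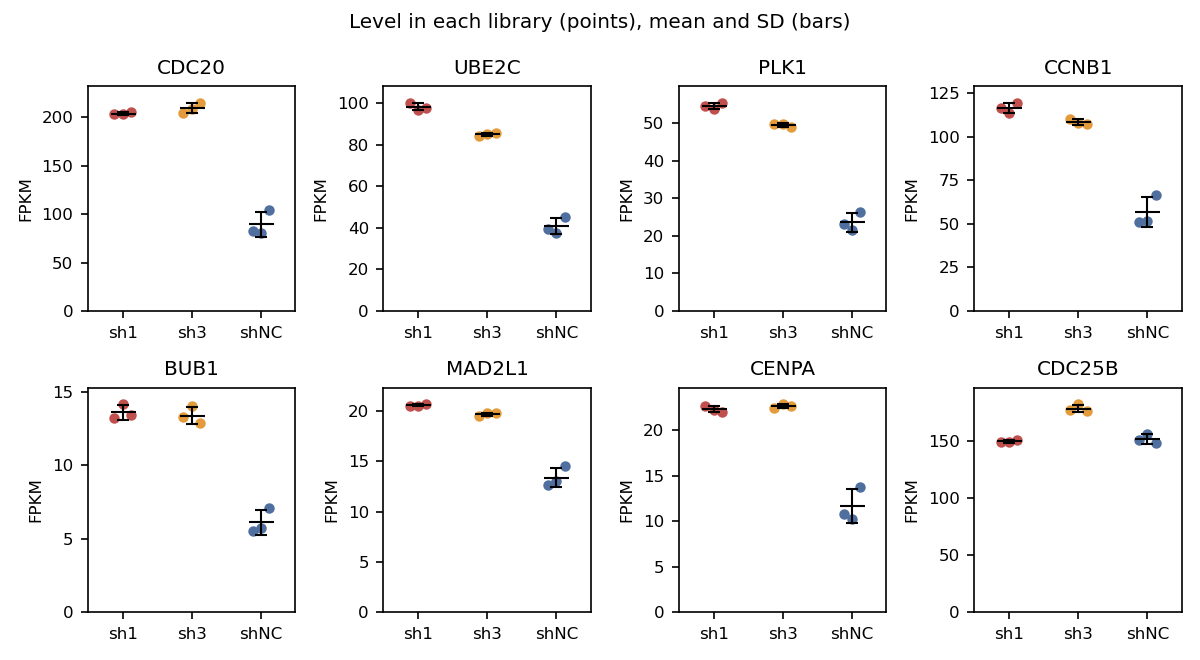
FPKM in each library (points) with the group mean and SD (bars, n = 3) for CDC20, UBE2C, PLK1, CCNB1, BUB1, MAD2L1, CENPA and CDC25B, each on its own axis from 0. The sh1 and sh3 points lie above all shNC points in every panel but that of CDC25B, where sh1 and shNC overlap near 150.2 FPKM and sh3 lies near 179.

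At the centromere and kinetochore, CENPA, the histone H3 variant that marks centromeres, was at 22.7, 22.2 and 22.0 FPKM in sh1, 22.5, 22.9 and 22.7 in sh3 and 10.8, 10.3 and 13.8 in shNC. Both hairpins overlapped, and the changes were 0.97 ± 0.09 and 0.96 ± 0.09. CENPF, a large protein of the outer kinetochore, rose by 0.94 ± 0.04 and 0.80 ± 0.04.

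All 8 mitotic kinesins rose with both hairpins, with medians of 0.95 with sh1 and 0.81 with sh3. The smallest change with sh1 was that of KIF11, the Eg5 motor that pushes the spindle poles apart, which was at 16.1, 15.9 and 15.7 FPKM in sh1, 15.2, 17.0 and 16.4 in sh3 and 9.35, 10.7 and 11.7 in shNC. Its change came to 0.62 ± 0.07 with each hairpin. The others with sh1 ranged up to 1.04 ± 0.06 for KIF2C, which depolymerises microtubules at the centromere and was at 47.0, 44.6 and 45.5 FPKM in sh1, 40.7, 41.4 and 42.1 in sh3 and 20.3, 22.8 and 25.0 in shNC. KIF20A, which carries the passenger complex to the central spindle, rose by 1.0 ± 0.05 and 0.94 ± 0.05, and KIF23, the motor of centralspindlin, by 0.93 and 0.77. The chromokinesin KIF4A rose by 1.0 and 0.86, KIF14, which acts in cytokinesis, by 0.93 and 0.76, CENPE, the motor of chromosome congression, by 0.96 and 0.84, and KIF18B, a microtubule depolymerase, by 0.74 and 0.56.

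The 6 spindle genes also rose, with medians of 0.90 and 0.77. TPX2, which activates AURKA on microtubules, had the highest level among them, at 106, 103 and 104 FPKM in sh1, 102, 102 and 104 in sh3 and 55.1, 55.8 and 61.8 in shNC, with changes of 0.89 ± 0.04 and 0.83 ± 0.04. PRC1, which bundles the central spindle, was at 49.6, 46.0 and 47.5 FPKM in sh1, 46.3, 52.0 and 45.3 in sh3 and 26.6, 27.6 and 35.9 in shNC, where replicate 3 lay nearest to the sh1 and sh3 values. Its changes of 0.70 ± 0.10 and 0.67 ± 0.10 (SE, adjusted p = 1.1e-04 and 2.8e-04, edgeR) had the largest standard error of the 40 genes. The spindle-pole protein ASPM rose by 0.91 and 0.72, DLGAP5, which stabilises kinetochore fibres, by 1.08 and 0.86, HMMR, a spindle-pole protein and hyaluronan receptor, by 1.08 and 0.96, and the microtubule-binding protein NUSAP1 by 0.71 and 0.66.

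Of the 10 roles, the 4 APC/C genes had the highest median with sh1, 1.20, and stood at 1.06 with sh3, beside 1.07 for the kinases. CDC20, the APC/C activator that the checkpoint holds back (ENSG00000117399, chromosome 1, 43358981 to 43363203), was at 203, 204 and 205 FPKM in sh1, 205, 209 and 215 in sh3 and 82.7, 80.6 and 105 in shNC. It had the highest level of all 40 genes in both sh1 and sh3 and was second to CDC25B in shNC. Its changes were 1.22 ± 0.08 and 1.23 ± 0.08 (SE, adjusted p = 2.3e-07 and 5.8e-07, edgeR). The FPKM ratio of CDC20 to MAD2L1, which binds it, was 9.94 ± 0.012 in sh1, 10.7 ± 0.22 in sh3 and 6.66 ± 0.53 in shNC (SD, n = 3 each). UBE2C, the ubiquitin-conjugating enzyme that starts chains for the APC/C (chromosome 20, 45812576 to 45816957), was at 100.2, 96.9 and 97.8 FPKM in sh1, 84.3, 84.9 and 85.7 in sh3 and 39.3, 37.7 and 45.2 in shNC. Its sh1 change of 1.30 ± 0.06 was the largest of any member with either hairpin, and its sh3 change was 1.06 ± 0.06, with no overlap between the 3 groups. PTTG1, securin, which restrains separase until the APC/C marks it, was at 37.8, 41.6 and 41.7 FPKM in sh1, 34.8, 32.3 and 36.0 in sh3 and 17.2, 18.7 and 19.6 in shNC. CDCA3, an APC/C substrate, rose by 1.17 ± 0.07 and 1.05 ± 0.07. The near-identical PTTG1 copies PTTG2 and PTTG3P had at most 2 counts in a library.

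Both chromosome genes rose. TOP2A, the topoisomerase that untangles sister chromatids, was at 147, 146 and 142 FPKM in sh1, 139, 139 and 142 in sh3 and 68.7, 70.6 and 81.7 in shNC, with changes of 1.01 ± 0.05 and 0.93 ± 0.05. MKI67, the antigen Ki-67 that coats mitotic chromosomes, was at 46.9, 47.0 and 46.1 FPKM in sh1, 42.9, 44.4 and 43.5 in sh3 and 29.0, 28.2 and 32.5 in shNC, a smaller change of 0.67 ± 0.05 and 0.55 ± 0.05. FOXM1, the transcription factor of this program, was at 24.4, 22.4 and 25.0 FPKM in sh1, 23.4, 25.6 and 24.4 in sh3 and 15.2, 15.3 and 17.9 in shNC. Both hairpins overlapped in FOXM1, which rose by 0.60 ± 0.07 with each, less than the median member.

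**Figure D3:**
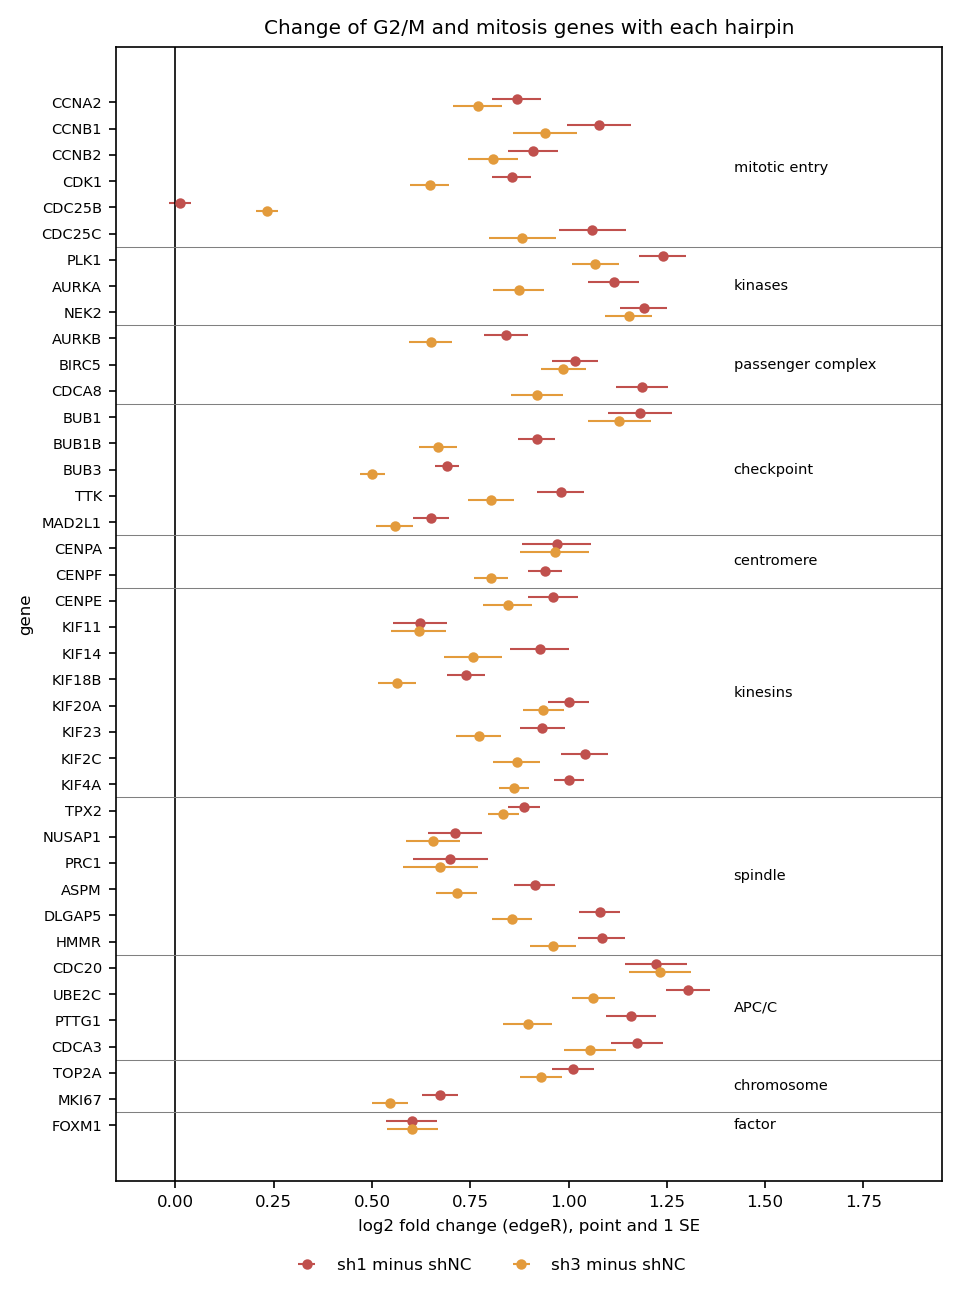
Log2 fold change of each member with sh1 (red) and sh3 (orange) against shNC, with 1 standard error (bars, edgeR). CDC25B with sh1 lies at 0.01, and the other points run from 0.23 for CDC25B with sh3 to 1.30 for UBE2C with sh1.

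Neither the labels nor the table's header say whether reads were counted by strand, and 9 members overlap another gene whose counts exceed 10% of their own. KIF20A overlaps CDC23 and BRD8, with 48.5% and 61.7% of its counts, CDC25C overlaps FAM53C with 188%, and CENPA overlaps SLC35F6, on the same strand, with 304%. PRC1 also overlaps a gene on the same strand, with 35.2%. The others are CCNA2, KIF4A, FOXM1, NUSAP1 and CDCA3, with 13.9% to 26.3% on the opposite strand. How much of their counts belongs to the partner is uncertain.

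The direct comparison of the hairpins asked whether these genes differed between sh3 and sh1. Of the 40, 14 were lower in sh3 than in sh1, 1 was higher and 25 were not called, where 25.9% of tested genes were called, 13.0% lower and 12.9% higher. The median difference was -0.13, against 0.01 over all tested genes, and 29 members had all sh3 libraries below all sh1 libraries on the normalised count scale, against 20.8% of tested genes. The member called higher was CDC25B, with a log2 difference of 0.22 ± 0.03 (SE, adjusted p = 1.5e-04, edgeR) and all sh3 libraries above all sh1 libraries, as for 21.0% of tested genes. CDCA8 had the largest negative difference, at -0.27 ± 0.06 (adjusted p = 0.0094, edgeR). PTTG1 followed at -0.26, BUB1B at -0.25, AURKA and UBE2C at -0.24 and DLGAP5 at -0.22. The smaller called differences were -0.21 for CDK1, -0.20 for ASPM, -0.19 for AURKB and BUB3, -0.18 for TTK and KIF18B and -0.14 for KIF4A and CENPF.

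By role, the called genes were spread over mitotic entry, the kinases, the passenger complex, the checkpoint, the centromere, the kinesins, the spindle and the APC/C. In the checkpoint 3 of 5 were lower in sh3, TTK by a call that most alternatives lost, and in the passenger complex 2 of 3. CDC20, at 0.01 ± 0.08, FOXM1, at 0.00 ± 0.06, KIF11, at -0.0036 ± 0.0685, and CENPA, at -0.01 ± 0.09, were not called, with adjusted p of 0.95, 0.99, 0.98 and 0.98 (edgeR). These standard errors leave room for differences about as large as the smallest of those called. BUB1, at -0.05 ± 0.08, was not called either, while BUB1B was, and the FPKM ratio of BUB1B to BUB1 was 3.10 ± 0.13 in sh3 and 3.55 ± 0.16 in sh1 (SD, n = 3 each).

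How many members were called between the hairpins depended on the shNC libraries, which enter this contrast through the shared estimate of spread. Without shNC replicate 3, 25 were lower and 1 was higher, and the median standard error of the difference was 0.033, against 0.058 with all 9 libraries. With only the sh3 and sh1 libraries in the fit 27 were lower and 1 higher. Without sh1 replicate 1 or without sh3 replicate 1, 8 were lower, and without sh3 replicate 2, 9. The counts over all genes moved too. When a library was left out, 2124 to 3030 genes were called lower and 2173 to 2966 higher, against 2770 and 2737 with all 9 libraries. CDC25B, BUB1B, BUB3, CDCA8, CDK1, DLGAP5, PTTG1 and UBE2C were called under all 17 alternatives. Of 18 settings, the fit to all 9 libraries included, TTK was called in 7 and CENPF in 8, ASPM, KIF18B and KIF4A in 13 each, AURKB in 14 and AURKA in 15. TTK was not called when any 1 sh1 or sh3 library, or shNC replicate 1, was left out, with adjusted p of 0.059 to 0.16 (edgeR). CENPF was not called without any 1 of the sh3 libraries or without sh1 replicate 1 or 2, with adjusted p of 0.071 to 0.12 (edgeR). The calls of the other 5 were each lost without 3 or 4 of the sh1 and sh3 libraries, 1 at a time, with adjusted p of 0.051 to 0.081 (edgeR).

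**Figure D4:**
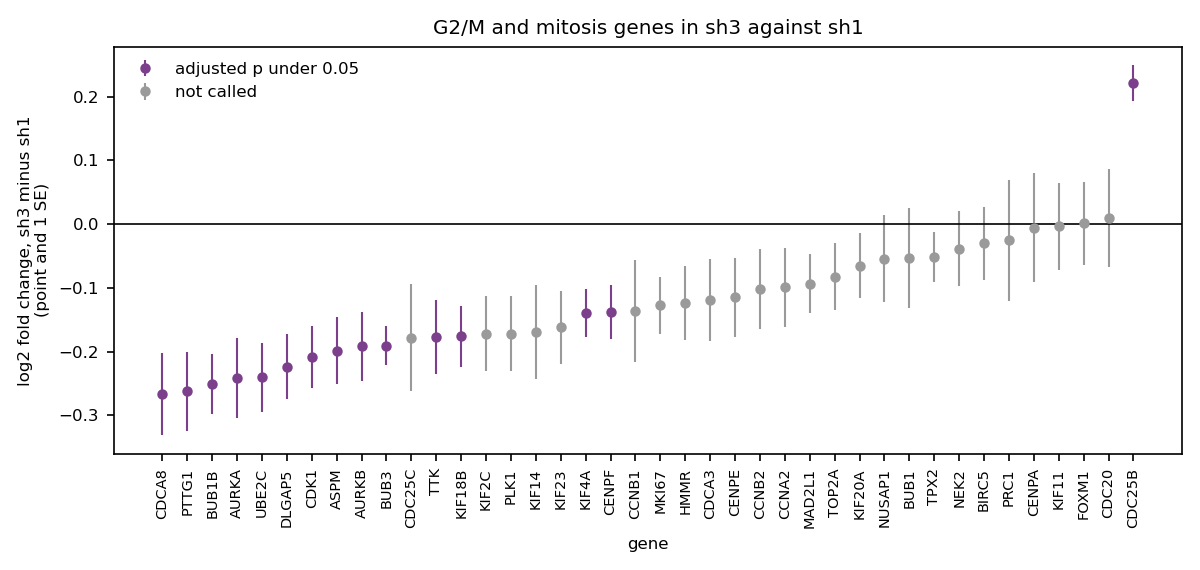
Log2 difference of sh3 minus sh1 for each member, ordered by size, with 1 standard error (bars, edgeR), and called genes in purple. The 14 genes called lower lie between -0.27 and -0.14, and CDC25B alone lies clearly above 0, at 0.22.

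Other genes of the same machinery were read from 14 lists of 215 genes that hold no member. Each count below is to be set beside the 19.9% of tested genes called higher and 18.8% called lower with sh1, and 14.4% and 12.4% with sh3. Of 14 core subunits of the APC/C, 9 rose and 1 fell with sh1, and 7 rose and 1 fell with sh3, with medians of 0.26 and 0.16. ANAPC7 rose by 0.43 and 0.42, ANAPC11, the RING subunit, by 0.34 and 0.33, and CDC23, which overlaps KIF20A, by 0.31 and 0.30, while ANAPC16 fell to 18.0, 17.9 and 18.4 FPKM in sh1 and 20.9, 19.6 and 19.5 in sh3, against 25.4, 26.3 and 25.7 in shNC. Of 5 APC/C coactivators, inhibitors and partner enzymes, 5 rose with sh1 and 4 with sh3. UBE2S, which extends the ubiquitin chains, rose by 1.06 and 1.09, TRIP13, which helps take the checkpoint complex apart, by 1.24 and 0.77, and FZR1, the CDH1 coactivator, by 0.52 and 0.55.

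Kinetochore and CENP-A loading genes rose, 27 of 35 with sh1 and 29 with sh3, with 0 lower and medians of 0.61 and 0.45. OIP5 and HJURP, which help load CENP-A, rose by 1.07 and 1.0 and by 1.12 and 0.83, and NUF2 of the NDC80 complex by 1.15 and 0.89. OIP5 overlaps NUSAP1 on the opposite strand, so its counts carry the same uncertainty. All 8 condensin genes rose with both hairpins, with medians of 0.64 and 0.47, NCAPD2 by 0.68 and 0.70, NCAPH by 0.79 and 0.66 and NCAPG by 0.80 and 0.62. Cohesin and separase genes differed among themselves, with 9 of 13 higher and 2 lower with sh1, and 5 higher and 0 lower with sh3. SGO2, the shugoshin that protects centromeric cohesin, rose by 1.19 and 0.89, CDCA5, sororin, by 0.87 and 0.57, and ESPL1, separase, by 0.79 and 0.67. All 10 genes of the cytokinesis list rose with both hairpins, with medians of 0.94 and 0.84. Of these, KNSTRN rose by 0.99 and 0.89 and SPAG5 by 0.98 and 0.86, though both are kinetochore and spindle proteins. RACGAP1, the centralspindlin partner of KIF23, rose by 0.97 and 0.86.

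Kinesins of mitosis and of transport were told apart. Of 7 further mitotic kinesins 7 rose with sh1 and 6 with sh3, with medians of 0.82 and 0.54, KIFC1 by 0.97 and 0.85, KIF22 by 0.89 and 0.83 and KIF20B by 0.89 and 0.64. Of 18 kinesins and light chains of cargo transport, 8 rose and 3 fell with sh1, and 6 rose and 3 fell with sh3, with medians of 0.09 and 0.02. KIF1C rose by 0.38 and 0.35, KIF5B by 0.39 and 0.34 and KLC2 by 0.23 and 0.29, while KIF13B fell by 0.51 and 0.39 on the log2 scale. Of 16 centrosome and spindle-pole genes there were 14 called higher with sh1, 11 called higher with sh3 and 1 called lower with each. TACC3 rose by 0.89 and 0.80, CKAP5 by 0.79 and 0.57 and PLK4, the kinase of centriole duplication, by 0.70 and 0.55. AKAP9 fell by 0.18 and 0.21, with calls that were lost in 10 alternatives with sh1 and 9 with sh3.

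Among regulators of the program, MYBL2 was at 128, 134 and 129.9 FPKM in sh1, 92.4, 102 and 100.4 in sh3 and 65.3, 67.7 and 76.5 in shNC. The 3 groups did not overlap, with changes of 0.93 ± 0.06 and 0.49 ± 0.06 and a difference of sh3 minus sh1 of -0.44 ± 0.06 (SE, adjusted p = 1.3e-04, edgeR). Of 12 MuvB, DREAM and MYBL2 genes 6 rose and 3 fell with sh1, and 5 rose and 2 fell with sh3, with medians of 0.19 and 0.11. LIN9 of MuvB rose by 0.55 and 0.49 and E2F4 by 0.38 and 0.41, while TFDP2 fell by 0.27 and 0.40 and RBBP4 by 0.13 and 0.09. The sh3 call of RBBP4 was lost in 6 alternatives. Of the 3 subunits of NF-Y, NFYB rose by 0.16 and 0.26, and its sh1 call was lost in 4 alternatives. NFYA, named here after its values were seen, fell by 0.31 with sh1, while its -0.05 with sh3 was not called.

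Among 13 tested genes that hold back CDK1 or mitotic entry (14 listed), 6 rose and 3 fell with sh1, and 5 rose and 2 fell with sh3, with medians of 0.23 and 0.10. The kinases that put the inhibitory phosphates on CDK1 were among those that rose: WEE1 was at 9.90, 9.49 and 9.67 FPKM in sh1, 9.41, 10.1 and 10.1 in sh3 and 7.25, 7.26 and 6.68 in shNC, and PKMYT1 was at 13.8, 14.5 and 13.8 in sh1, 13.0, 15.6 and 16.0 in sh3 and 9.02, 8.65 and 9.87 in shNC. Neither overlapped shNC in any sh1 or sh3 library. GADD45B, which can inhibit CDK1 with cyclin B1, rose by 0.85 and 0.64. CCNG1, cyclin G1, a p53 target, was lower, at 14.1, 13.6 and 13.7 FPKM in sh1, 14.2, 13.8 and 15.1 in sh3 and 22.5, 22.6 and 22.4 in shNC, with changes of -0.67 ± 0.04 and -0.64 ± 0.04.

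Of 18 other G2/M regulators 15 rose with each hairpin, and 1 fell with sh1 and 2 with sh3, with medians of 0.85 and 0.73. FAM83D, a spindle protein, rose by 1.21 and 1.15, PIMREG by 1.16 and 1.11 and PSRC1 by 1.10 and 0.90, while ENSA, an inhibitor of PP2A in mitosis, fell by 0.25 and 0.28. The G1/S and DNA replication list, which precedes this phase, moved less: of 41 tested (42 listed), 27 rose and 4 fell with sh1, and 16 rose and 2 fell with sh3, with medians of 0.20 and 0.09. CDK6 rose by 0.81 and 0.42, E2F8 by 0.64 and 0.45 and TK1 by 0.40 and 0.46, while CCND1, cyclin D1, fell by 0.17 and 0.16. In sh3 against sh1 20 of these 41 were lower and 5 higher, with a median of -0.15, where 13.0% of tested genes were called lower and 12.9% higher.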

How the data were processed

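Counts and FPKM were analysed for 9 libraries, 3 per group. Per the labels' protocols, poly(A) RNA was made into dUTP-stranded libraries and sequenced from both ends on an Illumina NovaSeq. The submitters' processing notes name GRCh38, HISAT2 2.2.1, cutadapt 1.9, edgeR, DESeq2 and StringTie 2.1.6 without their roles; no source here gives the annotation or the counting strand. Per the column headers, the table holds counts per gene, and the headers do not say whether these are raw read counts. The authors deposited FPKM beside the counts, a level corrected for transcript length and sequencing depth.

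Levels in the text are the deposited FPKM, and fold changes come from the counts. In R 4.3.3, edgeR 4.0.16 (filterByExpr with a minimum count of 10, TMM factors, glmQLFit, glmQLFTest) was fitted to the 9 libraries together, with a mean for each group and without a block. Genes were called at a two-sided Benjamini-Hochberg adjusted p under 0.05 over 21296 genes. A standard error is the absolute log2 fold change over the square root of F. The procedure was tested on simulated counts with the same spread in all groups. That test does not cover the larger spread of the members in shNC. Alternatives were library totals, upper-quartile factors, DESeq2 1.42.0, no filter, only the groups compared, a replicate block, limma 3.58.1 on log2(FPKM + 1) and log2(FPKM + 0.1), and leaving out each library. No pair of replicates agreed within sampling noise (chi-square over degrees of freedom, 9.01 to 18.9). Precision is limited by 3 libraries a group, and PCR copies are not independent molecules. The members, the lists and the promoter motifs were chosen with earlier results of these data known. All members are reported. Of each other list up to 3 genes per direction are named, those called with both hairpins in the same direction and ranked by the smaller absolute change, and all members called between the hairpins are named.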

Additional observations from a re-analysis of the deposited data

Results flagged for a closer look

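CDC25B moved with sh3 and not with sh1, and the difference between the hairpins was itself tested. It was at 177, 183 and 177 FPKM in sh3 and 149, 149.7 and 152 in sh1, a log2 difference of sh3 minus sh1 of 0.22 ± 0.03 (SE, adjusted p = 1.5e-04, edgeR). It kept this direction and its call under all 17 alternatives, and it was the only member called higher in sh3 than in sh1.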

How the results depend on the processing

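Against shNC, the counts of 39 members higher with sh1 and 40 with sh3, and 0 lower, were the same under all 17 alternatives, and no member's call changed in either contrast. Between sh3 and sh1, where 15 members were called, 14 of them lower, the count was 28, with 27 lower, when only these groups were fitted. It was 10, with 9 lower, with limma at either pseudocount, 9 to 26, with 8 to 25 lower, when a library was left out, and 13 to 19 with library totals, upper-quartile factors, DESeq2 or no filter. No member's difference changed sign in a called value. The cause of the change with limma was not tested. Library numbers did not pair the samples: correlations of same-numbered libraries' deviations were -0.056 to 0.026, and 3 of 18 best matches were with the library's own number. With the replicate block 39, 40 and 15 members were called for sh1 and sh3 against shNC and sh3 against sh1, where between the hairpins CENPF was lost (adjusted p = 0.053) and PLK1 was gained (adjusted p = 0.049, edgeR), and 7951, 5446 and 5125 of all genes, against 8243, 5719 and 5507 without it. Over the libraries left out in turn, those counts of all genes were 7195 to 8194, 4690 to 5925 and 4312 to 5996. With 3 libraries a group the median standard error of a member's difference between the hairpins was 0.058, which limits what could be called.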
